A study of Mus musculus with 18 samples.

Results

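The 7 mature microRNAs (miRNAs) followed here across eye, lung and testicle of the mouse come from 5 neuronal hairpins: mmu-miR-384-5p, mmu-miR-384-3p, mmu-miR-346-5p, mmu-miR-383-5p, mmu-miR-592-5p, mmu-miR-592-3p and mmu-miR-149-5p, written below without the species prefix. They are 7 of the 1431 mature miRNAs listed for every library, and they were selected on their counts in these same files, being much higher in the eye than in the other organs. The eye contrasts are therefore given as description, without a test. Small RNA was sequenced from left eye, right eye, left lung, right lung, left testicle and right testicle of male C57BL/6 mice aged 8 to 12 weeks, with 3 libraries in each of the 6 groups. No treatment or mutation distinguished the groups, and the labels record neither which libraries share a mouse nor whether mice were pooled, so p-values measure the spread between these libraries only. Where a left and a right library came from 1 animal, n = 6 per organ overstates the replication.

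A miRNA is cut from a hairpin precursor that yields a 5p and a 3p arm, and the arm loaded into Argonaute pairs with messenger RNAs mainly through its seed, bases 2 to 8. Many miRNAs lie in introns and are made from the host gene's transcript. Neurons hold a set of such miRNAs in genes of the synapse. The retina, which is brain tissue by origin, uses glutamate as the transmitter of photoreceptors and bipolar cells, so miRNAs inside glutamate receptor genes are of interest in the eye.

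The hairpins differ in where they sit in the genome (RefSeq positions on GRCm38.p6, the build named in the submitters' processing notes, with genes from GENCODE M21). Mir346 lies at chr14:34894609-34894706 on the plus strand, in an intron of Grid1, which encodes the glutamate receptor subunit delta-1 of the synapse. Mir592 lies at chr6:27936655-27936750 on the minus strand within Grm8, the gene of metabotropic glutamate receptor 8, which restrains transmitter release from nerve terminals. An annotated exon of Grm8 overlaps the hairpin, and which Grm8 transcripts carry that exon is not given here. Mir149 lies at chr1:92850378-92850443 on the plus strand, in an intron of Gpc1, which encodes the heparan sulfate proteoglycan glypican-1. Mir384 lies at chrX:105344282-105344369 on the minus strand and overlaps no other annotated gene.

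The mature sequences of 6 of the 7 are shown 5′ to 3′ as given by RefSeq, with the seed in capitals, because the seed decides which of them could share targets with each other or with more abundant miRNAs; miR-383-5p is named only.
miR-384-5p: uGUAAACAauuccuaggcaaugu
miR-384-3p: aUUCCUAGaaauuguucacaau
miR-346-5p: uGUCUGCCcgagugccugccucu
miR-592-5p: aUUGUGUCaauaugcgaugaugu
miR-592-3p: uCAUCACGuggugacgcaacau
miR-149-5p: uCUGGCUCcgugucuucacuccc
No seed was shared among these 6. Among the 1209 counted names with a sequence, the seeds of miR-384-3p, miR-346-5p, miR-592-5p, miR-592-3p and miR-149-5p each occurred under 1 name, their own. The seed of miR-384-5p, GUAAACA, is that of the miR-30 family, and its first 8 bases were identical to those of miR-30a-5p, miR-30c-5p and miR-30e-5p. The arms of miR-384 share a run of 8 bases, AUUCCUAG, which begins at base 9 of the 5p arm and at base 1 of the 3p arm. Base composition also differed, with 65.2% and 60.9% G and C in miR-346-5p and miR-149-5p against 34.8% and 27.3% in the arms of miR-384.

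Total counts were 2451484 to 2680204 in eye libraries, 2538402 to 2790471 in lung libraries and 952608 to 1893132 in testicle libraries. Levels are counts per 1e6 scaled by trimmed mean of M values (TMM CPM) unless counts are named. Where nothing was counted, up to 3 counts remain possible; by library total this floor was at most 1.22 CPM for eye and lung, and 1.58 to 3.15 CPM for testicle. Floors, and the intervals given with shares, cover counting error only. In whole organs, fewer cells of a type and less RNA per cell cannot be told apart. The labelled organs carried their own marker miRNAs. The photoreceptor list (miR-183-5p, miR-96-5p and miR-182-5p) summed to 92050 to 126100 CPM in eye libraries and to at most 4712 CPM in any lung or testicle library.

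The arms of miR-384, a brain-abundant miRNA that in rat hippocampus has been tied to the upkeep of long-term potentiation, were both abundant in the eye, and the 5p arm had the highest mean of the 7. MiR-384-5p had 5010, 4061 and 2766 CPM in left eyes and 4399, 5467 and 4687 CPM in right eyes. In lung it had 2 to 19 counts per library (2.62 ± 1.73 CPM, SD, n = 6) and in testicle 3 to 26 counts (12.9 ± 7.21 CPM), so every eye library stood above every library of the other organs. MiR-384-3p averaged 2025 ± 243 CPM in eye, 2.07 ± 1.24 CPM in lung and 5.77 ± 4.04 CPM in testicle. By mean level miR-384-5p ranked 44th of all 1431 miRNAs in the eye, 455th in the lung and 412th in the testicle.

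The miRNAs inside the glutamate receptor genes lay at very different levels. MiR-346-5p, from Grid1, had 237, 251 and 404 CPM in left eyes and 241, 336 and 273 CPM in right eyes. In lung it had 0, 5, 1, 0, 1 and 3 counts, and in testicle 3, 3, 0, 2, 4 and 4 counts. MiR-592, from Grm8, was scarce even in the eye. Its 5p arm had 13, 14 and 14 counts in left eyes and 16, 17 and 15 counts in right eyes, which is 5.69 ± 0.982 CPM. It had 0 counts in all 6 lungs and 1 count over the 6 testicles. Against a floor of 3 counts over the 6 lungs, miR-592-5p was at least 31.1-fold higher in the eye. The 3p arm had 8 to 21 counts per eye library, 2 counts over the lungs, both in left lung 2, and 3 counts over the testicles.

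MiR-149-5p kept a level in both other organs, and miR-383-5p a much lower one in the lung. MiR-383-5p, which has also been studied in germ cells of the testis, had 281, 251 and 237 CPM in left eyes and 269, 318 and 291 CPM in right eyes. In lung it had 9 to 35 counts per library (7.10 ± 3.63 CPM), while the 6 testicles held 13 counts in all (1.59 ± 1.21 CPM). MiR-149-5p averaged 2217 ± 182 CPM in eye, 202 ± 91.7 CPM in lung and 155 ± 30.8 CPM in testicle, so the lung stood at 9.11% of the eye mean. MiR-149-5p was thus counted at over 100 counts in every library of every organ, unlike the other 6. In the order of eye levels, from miR-384-5p through miR-149-5p, miR-384-3p, miR-346-5p, miR-383-5p and miR-592-5p to miR-592-3p, the ranges over 6 libraries overlapped between miR-149-5p and miR-384-3p, between miR-346-5p and miR-383-5p, and between the arms of miR-592, while the other neighbours did not overlap.

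**Figure D1:**
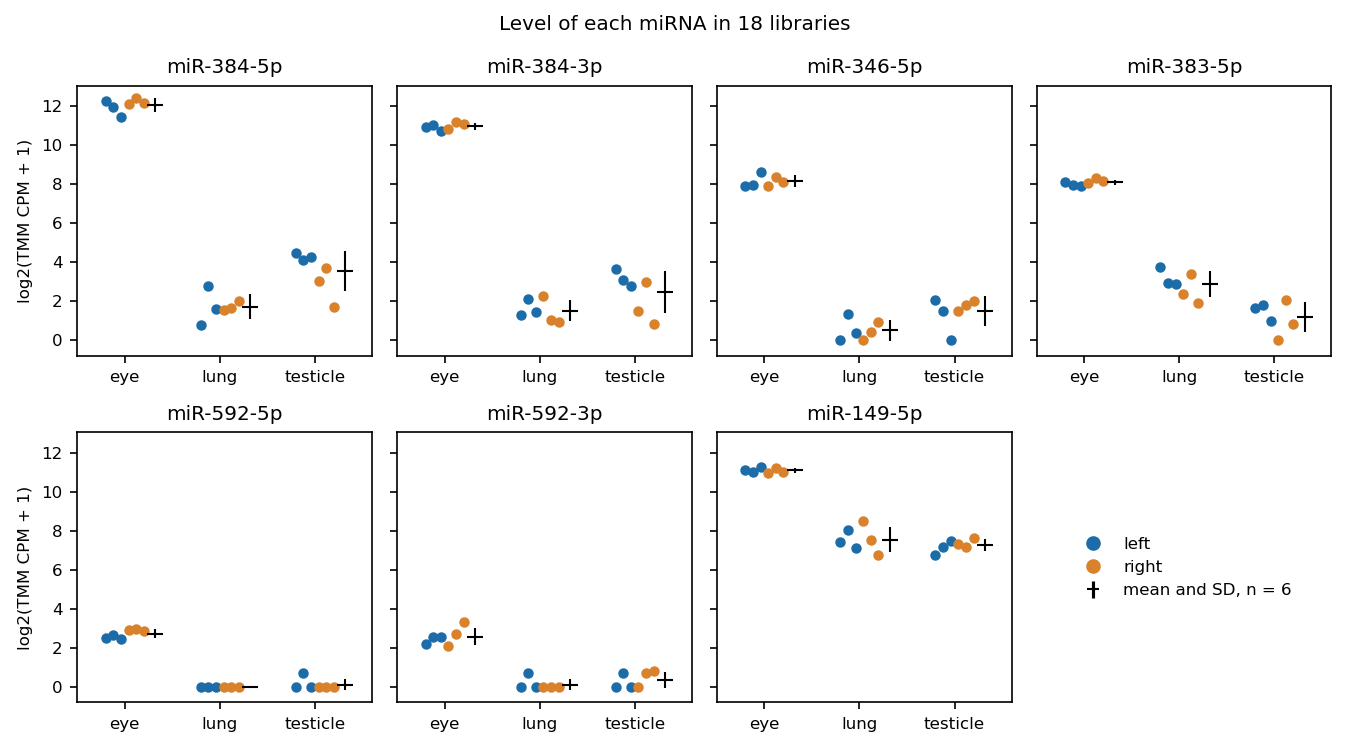
Level of each of the 7 miRNAs as log2(TMM CPM + 1) in the 18 libraries, with eye, lung and testicle along the x axis, left organs in blue, right organs in orange, and the mean and SD over 6 libraries in black. Eye libraries lie above all others in each panel, miR-384-5p and miR-384-3p tend to be lower in lung than in testicle, miR-383-5p the other way, and miR-149-5p is well above 0 in all organs.

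In the values that chose them, the log2 fold changes of eye against lung and of eye against testicle were 10.66 and 8.55 for miR-384-5p, 9.91 and 8.57 for miR-384-3p, and 8.94 and 7.11 for miR-346-5p. They were 5.30 and 7.31 for miR-383-5p, and 3.46 and 3.84 for miR-149-5p. Of all 642 miRNAs tested over the 18 libraries, the eye was called higher than the lung for 35.4% and higher than the testicle for 40.2%. Every eye library exceeded every lung library for 31.3% of the tested miRNAs and every testicle library for 33%. All 7 passed the filter on low counts over 18 libraries. For miR-346-5p and both arms of miR-592 this rested on the eye, since only miR-384-5p, miR-384-3p, miR-383-5p and miR-149-5p passed when lung and testicle were filtered on their own (4 of 7).

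The choice of these miRNAs did not use the contrast of lung against testicle, and there they divided. It is read for the 4 that passed the filter without the eye libraries. With edgeR's quasi-likelihood test and Benjamini-Hochberg adjustment over 642 miRNAs, both arms of miR-384 were lower in the lung than in the testicle and miR-383-5p was higher, while miR-149-5p was not called. That is 3 of 4, where 76.5% of all tested miRNAs were called, 27.4% higher in the lung and 49.1% lower, with a median log2 fold change of -0.90 over all of them. Every lung lay above every testicle for 18.1% of the tested miRNAs and below for 38.6%, and for none of the 7.

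MiR-384-5p had 2, 19 and 7 counts in left lungs and 5, 6 and 10 counts in right lungs, against 20, 26 and 19 counts in left testicles and 8, 19 and 3 counts in right testicles, although the testicle libraries were smaller. The lung minus testicle difference was -2.12 on the log2 scale (SE 0.40; edgeR adjusted p 0.000147), with the lungs overlapping only right testicle 3. For miR-384-3p it was -1.34 (SE 0.44; edgeR adjusted p 0.0108), and right testicles 1 and 3 were no higher than the highest lung. MiR-346-5p, at 10 counts over the lungs and 16 over the testicles, is given as counts only, with 5 of the 6 lungs at or under the floor of 3 counts, and so are the arms of miR-592.

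MiR-383-5p ran the other way. It had 35, 22 and 22 counts in left lungs and 11, 27 and 9 counts in right lungs, against 2, 4 and 1 counts in left testicles and 0, 5 and 1 counts in right testicles. The log2 fold change was 2.01 (SE 0.46; edgeR adjusted p 0.00076), and on the CPM scale only right lung 3, at 2.76 CPM, fell below the highest testicle, at 3.19 CPM. MiR-149-5p had 106 to 357 CPM in lungs and 108 to 197 CPM in testicles, ranges that overlap, and a difference of 0.38 on the log2 scale (SE 0.26; edgeR adjusted p 0.187; 95% interval -0.16 to 0.92).

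Part of these calls moved with the scaling. The median of all tested miRNAs was -0.90 with TMM, -0.65 with relative log expression, -0.50 with library sizes alone, and -0.31 and -0.37 with left lung 1 and left testicle 1 as the TMM reference. The split of all calls moved with it, 176 higher and 315 lower in the lung with TMM against 233 higher and 267 lower with left lung 1 as reference. MiR-384-5p stayed lower in the lung (-2.12 to -1.54) and miR-383-5p higher (2.01 to 2.63) under all 5 scalings, each time past the threshold. The call of miR-384-3p was lost with library sizes alone and with both other TMM references (edgeR adjusted p 0.0543 to 0.126), in the 12 lung and testicle libraries fitted alone (0.104), and without right testicle 2 (0.29) or right eye 2 (0.159). MiR-149-5p was called higher in the lung under the other 4 scalings (0.66 to 0.95; edgeR adjusted p 0.00399 to 0.0407), and without right lung 3 (0.0313) or right eye 2 (0.00288). The ratio of miR-383-5p to miR-384-5p counts needs no scaling. It had a median of 2.67 in lungs (0.9 to 17.5) and 0.127 in testicles (0 to 0.333), with no overlap, and lay between 0.056 and 0.0857 in eyes. This ratio was chosen after the values were seen and was not tested.

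**Figure D2:**
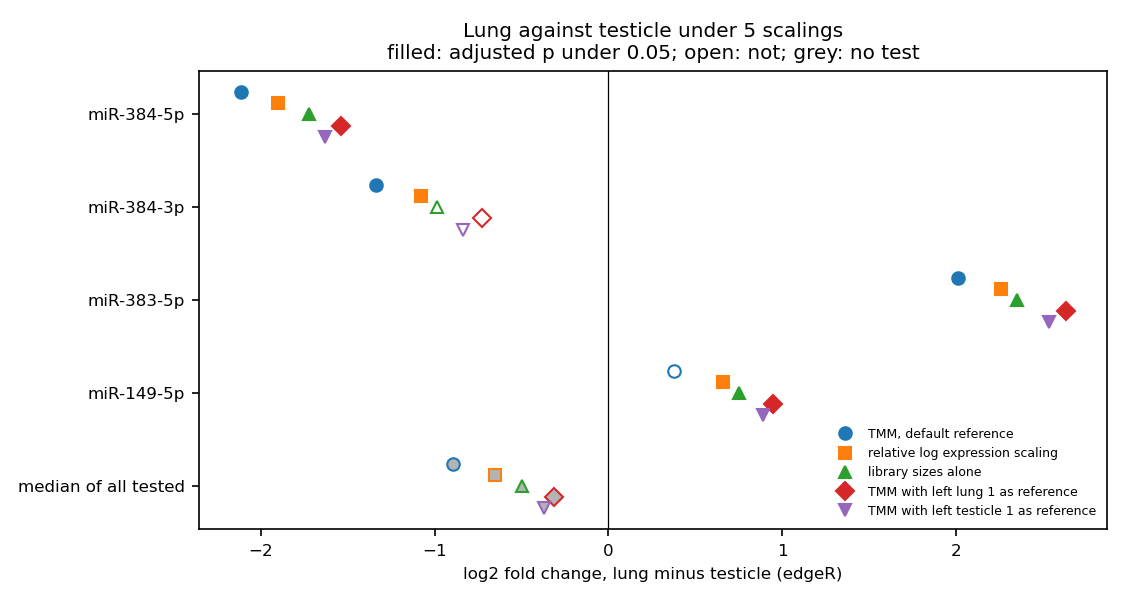
Log2 fold change of lung minus testicle (x axis, edgeR, 18 libraries) for the 4 miRNAs that passed the filter in lung and testicle, and the median of all 642 tested miRNAs, under 5 scalings. Filled symbols passed an adjusted p of 0.05 and open ones did not; miR-384-5p is below and miR-383-5p above 0 with filled symbols throughout, while the symbols of miR-384-3p and miR-149-5p are partly open.

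Lung libraries also held miRNAs used here as markers of eye tissue, unevenly. The pigment epithelium pair miR-204-5p and miR-211-5p summed to 1636 CPM in right lung 1 and 576 CPM in left lung 2, against 157 to 247 CPM in the other 4 lungs. The lens and cornea pair miR-184-3p and miR-205-5p summed to 160 and 122 CPM in right lung 1 and left lung 2, against 8.35 to 40.0 CPM in the others. The photoreceptor list did not single out these 2 lungs. It summed to 4712 CPM in right lung 1, 3931 CPM in right lung 2 and 3794 CPM in left lung 2, against 2365 to 3188 CPM in the others. Right lung 1 and left lung 2 held the most miR-384-3p (10 and 11 counts, against 3 to 6), and left lung 2 the most miR-384-5p and miR-346-5p (19 and 5 counts). Right lung 1, where the sums of both pairs were highest, did not follow for these 2. It had 5 counts of miR-384-5p (1.93 CPM, below the lung median of 2.11 CPM) and 0 of miR-346-5p. The pair sums need not hold for each miRNA, since miR-205-5p alone was highest in left lung 2. As a share of the eye mean, miR-384-5p reached 0.0165% to 0.132% in lungs, miR-384-3p 0.0454% to 0.191% and miR-346-5p 0 to 0.527%. The markers of eye tissue covered a wide range on the same scale. Their highest values in any lung were 0.393% for miR-184-3p, 0.953% for miR-211-5p, 2.67% for miR-204-5p and 4.31% for miR-205-5p, and 3.48% to 6.82% for the 3 photoreceptor miRNAs. In testicles the pigment epithelium pair summed to 10820 to 21740 CPM and the lens and cornea pair to 3111 to 13550 CPM, above any lung. There miR-204-5p and miR-184-3p stood at 31.2% and 17.9% of their eye means, so these 2 are not confined to the eye. MiR-211-5p and miR-205-5p stood at 0.637% and 0.329%. Whether the lung counts of miR-384 and miR-346 came from lung cells was not tested.

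MiR-383-5p and miR-149-5p made up more of their eye means in the lung. MiR-383-5p was at 1.01% to 4.63% of its eye mean in lungs and miR-149-5p at 4.80% to 16.1%, ranges that overlap those of several eye markers. MiR-383-5p was highest in left lung 1, the lung with the lowest sum of miR-184-3p and miR-205-5p (8.35 CPM). MiR-149-5p was highest in right lung 1 and left lung 2, with 925 and 846 counts against 347 to 503 in the other lungs. Without these 2 lungs, miR-383-5p had a log2 fold change of 2.64 for lung against testicle (edgeR adjusted p 0.000136). Those of miR-384-5p, miR-384-3p and miR-149-5p were -2.07, -1.54 and 0.42 (edgeR adjusted p 0.000182, 0.00471 and 0.0534). The median of all tested miRNAs also moved, to -0.46 from -0.90 with all 18 libraries, so these values mix the loss of the 2 lungs with a change of scaling.

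Left and right eyes, which the design sampled separately, were not called different for any of the 7. With edgeR on the 6 eye libraries, 0 of 7 were called and 0% of all 487 miRNAs tested, with 18 of the 487 at an unadjusted p under 0.05, none of them among the 7. DESeq2 called 1 miRNA, not one of the 7. MiR-384-5p averaged 3946 ± 1130 CPM in left eyes and 4851 ± 552 CPM in right eyes (SD, n = 3 each); the log2 difference was -0.29 with a 95% interval of -0.84 to 0.27 (edgeR adjusted p 0.982). The intervals were -0.55 to 0.30 for miR-384-3p, -0.50 to 0.63 for miR-346-5p, -0.59 to 0.22 for miR-383-5p and -0.28 to 0.43 for miR-149-5p. A 2-fold side difference, which is 1 on this scale, lies outside each of these intervals. MiR-592-5p, at 4.84 ± 0.42 CPM in left eyes and 6.54 ± 0.23 CPM in right eyes, was the only one of the 7 whose sides did not overlap, and 10.1% of tested miRNAs had sides that did not overlap. Its log2 fold change was -0.43 with an interval of -1.06 to 0.20 (edgeR adjusted p 0.982), from 13 to 17 counts per library. That of miR-592-3p was -0.40, with the widest interval of the 7, -1.39 to 0.59. A 2-fold side difference lies inside the intervals of both arms of miR-592.

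In the lung and testicle most of the 7 were too low to test by side. MiR-383-5p and miR-149-5p passed the filter in the lung and miR-384-5p and miR-149-5p in the testicle, and edgeR called none of them, as it called 0% of 430 miRNAs in the lung and 0% of 464 in the testicle (1 and 36 at an unadjusted p under 0.05, while DESeq2 called 0 and 1). MiR-384-5p had 21.5, 16.2 and 18.3 CPM in left testicles and 7.19, 12.1 and 2.28 CPM in right testicles. The sides did not overlap, which held for 21.6% of the miRNAs tested there. The log2 fold change was 1.52 (SE 0.50; edgeR unadjusted p 0.0213, adjusted p 0.575). The side difference of miR-384-5p in eye minus that in testicle was -1.64 (SE 0.71; edgeR unadjusted p 0.0347, adjusted p 1).

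Within the eye the 7 did not all vary together. Left eye 3 had the least miR-384-5p (log2 level 0.77 below the mean of the other 5 eyes, as a difference of -0.77) and the most miR-346-5p (0.60 above) and miR-149-5p (0.20 above). Right eye 2 was above the mean of the others for all 7, by 0.13 for miR-149-5p to 0.42 for miR-384-5p. Across the 6 eyes, log2 levels of miR-384-5p had a Pearson r of 0.90 with miR-383-5p, 0.78 with miR-384-3p and -0.56 with miR-346-5p, while miR-346-5p had 0.86 with miR-149-5p. These describe 6 libraries that may share animals, and counting alone gives a spread of only 0.934% for miR-384-5p, whose coefficient of variation was 21.3%. MiR-149-5p varied least, at 8.23%, while miR-592-5p, at 17.3%, varied by no more than the 26.0% that counting alone gives.

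Among the 7, miR-346-5p and miR-149-5p, which were high in left eye 3, had the most G and C of those with a sequence. Across 291 miRNAs with a mean of over 50 counts in the eye, the deviation of a library from the other eyes had a Pearson r with G and C content of 0.19 in left eye 3 and of -0.19 to 0.08 in the other 5. The r of left eye 2, -0.19, was as large in size. Right eye 2, where miR-346-5p and miR-149-5p were also above the other eyes (by 0.29 and 0.13), had an r of -0.09. Left eye 3 also had the highest summed glial markers (miR-219a-5p, miR-219a-2-3p and miR-338-3p), at 2282 CPM, but right eye 1 and left eye 2 were close, at 2236 and 2195 CPM. On the TMM CPM scale it had the lowest sums of photoreceptor (92050 CPM, against up to 126100 CPM), pigment epithelium (74160 CPM, against up to 91620 CPM) and lens and cornea markers (34530 CPM, against up to 44630 CPM). Its TMM factor, 1.182 against 0.9578 to 1.051 in the other eyes, lowers all its CPM values. In counts its pigment epithelium sum, 229064, was the highest of the eyes, and its lens and cornea sum, 106666, lay within the 101607 to 124444 of the others. Its photoreceptor sum in counts, 284322, also lay within the 281242 to 313416 of the others. The part of any of these in the spread of the 7 was not tested.

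**Figure D3:**
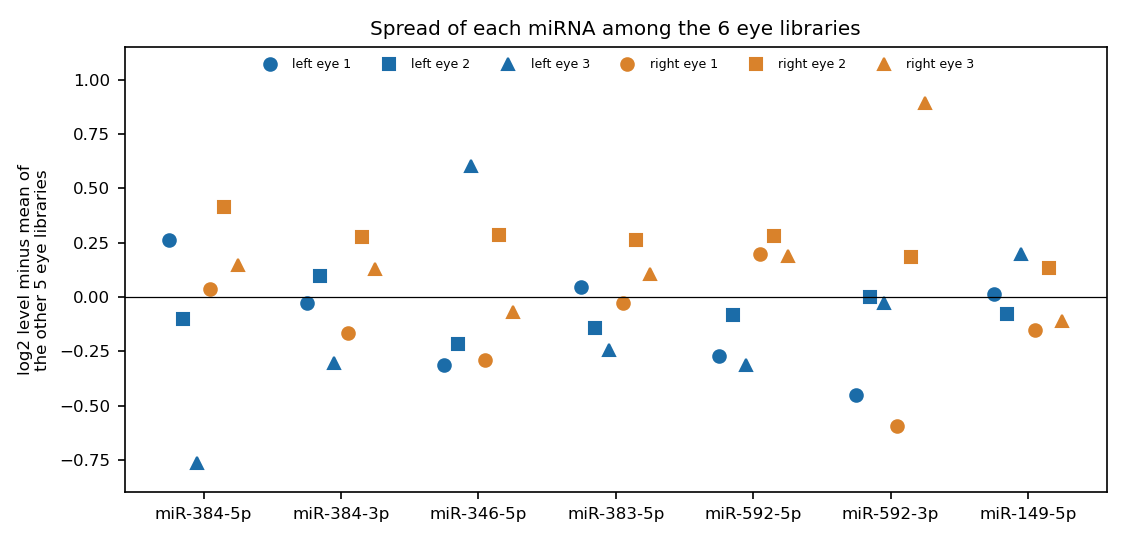
Log2 level of each of the 7 miRNAs in an eye library minus the mean of the other 5 eye libraries (y axis), with left eyes in blue and right eyes in orange and a symbol for each replicate number. Left eye 3 is lowest for miR-384-5p and highest for miR-346-5p and miR-149-5p, and left and right eyes overlap for all but miR-592-5p.

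MiR-384-5p was set beside the miRNAs that carry its seed, which is shown in capitals because it is the part they have in common.
miR-384-5p: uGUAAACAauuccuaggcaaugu
miR-30a-5p: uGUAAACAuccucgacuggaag
miR-30c-5p: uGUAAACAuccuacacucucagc
miR-30e-5p: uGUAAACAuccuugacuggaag
With miR-30b-5p and miR-30d-5p, the other members of the miR-30 family, counted by name (a choice made after the values were seen), miR-384-5p held 19.8% ± 5.81 (SD, n = 6) of the family's counts in the eye. Against the 3 printed miR-30 sequences alone, which are not the whole family, it held 31.3% to 58.7% in the 6 eyes, 46.5% on average. The miR-30 family is expressed in most organs, and miR-30d-5p and miR-30b-5p led these 6 names in the eye, at 32.4% ± 5.32 and 25.3% ± 4.58. MiR-384-5p came next and exceeded miR-30c-5p (11.2% ± 2.81), miR-30a-5p (9.95% ± 1.90) and miR-30e-5p (1.29% ± 0.313) on average. Its share of the 6 names was 26.3%, 17.1% and 11.8% in left eyes and 15.7%, 22.9% and 25.1% in right eyes. The 95% Wilson intervals of the extreme libraries, 25.9% to 26.7% in left eye 1 and 11.6% to 12.0% in left eye 3, were far apart.

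In lung and testicle miR-384-5p was a trace of that family, at 0.0078% ± 0.00496 and 0.102% ± 0.0585 of the 6 names. The eye was not the organ with the most miRNA of this kind. All 6 names summed to 22820 ± 3510 CPM in the eye, 34780 ± 7580 CPM in the lung and 12650 ± 1920 CPM in the testicle.

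Use of the hairpin arms was not part of the choice. The Mir384 and Mir592 hairpins are printed 5′ to 3′ with both mature arms in capitals, to show the arms whose counts are compared.
Mir384: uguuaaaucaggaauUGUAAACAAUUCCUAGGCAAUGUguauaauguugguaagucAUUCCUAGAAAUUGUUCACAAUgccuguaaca
Mir592: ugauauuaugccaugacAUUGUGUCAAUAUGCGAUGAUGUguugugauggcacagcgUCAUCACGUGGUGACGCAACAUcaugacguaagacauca
Both arms of Mir384 were well counted in the eye. The 5p arm held 71.7%, 65.6% and 62.1% of both arms' counts in left eyes and 70.6%, 69.9% and 68.4% in right eyes, a mean of 68.0% ± 3.59 (SD, n = 6). Left eyes averaged 66.5% ± 4.84 and right eyes 69.6% ± 1.16 (n = 3 each; exact two-sided permutation p 0.4, where 0.1 is the smallest p that 3 against 3 allows). Over the summed counts the 5p share was 57.0% in the lung (95% Wilson interval 46.4% to 66.9%) and 68.8% in the testicle (60.7% to 76.0%), from 49 and 95 counts of the 5p arm beside 37 and 43 of the 3p arm.

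The arms of Mir592 were nearly even. The 5p arm held 52.4% of the counts over the 6 eyes, 89 beside 81 of the 3p arm (95% Wilson interval 44.9% to 59.7%), and led in 4 of 6 libraries. The other hairpins used 1 arm almost alone: the 3p arm of miR-383 had 30 counts over the 6 eyes beside 4320 of the 5p arm, and that of miR-149 had 22 beside 35275. The 3p arm of miR-346 was not among the counted names.

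**Figure D4:**
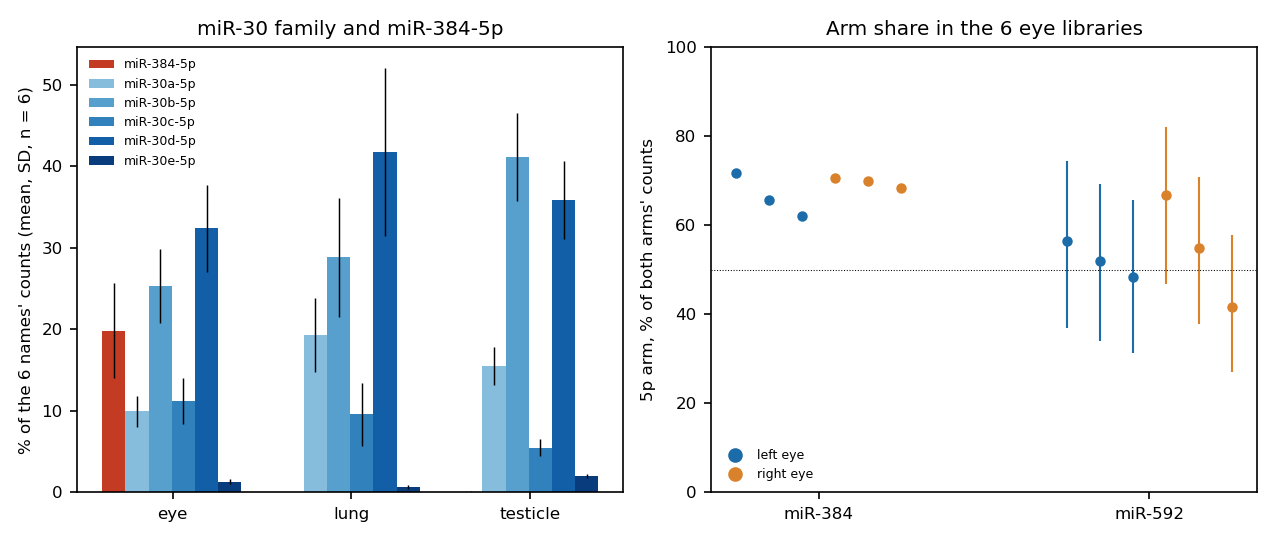
On the left, share of the counts of miR-384-5p and 5 miR-30 names held by each in eye, lung and testicle (bars are means over 6 libraries, lines the SD); miR-384-5p, in red, holds 19.8% in the eye and does not show in lung and testicle. On the right, 5p arm share of both arms' counts in each eye library for miR-384 and miR-592 with 95% Wilson intervals, near 68.0% for miR-384 and on both sides of 50% for miR-592.

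A list of 22 other neuronal miRNAs gave the setting for these 7. It was drawn up with earlier results of these data known, so its eye comparisons are a description and no independent test. All 22 were among the counted names and 19 passed the filter over 18 libraries, of which 17 also passed without the eye libraries. The rest passed only through their eye counts, which favours a call of higher in the eye. With edgeR, 15 of the 19 were higher in the eye and 0 lower when set against the lung, where 35.4% of all tested miRNAs were higher and 24.5% lower, and their median log2 fold change was 3.93, against 0.00 over all tested. Between eye and testicle, 17 of the 19 were higher in the eye and 2 lower, with 40.2% of all tested miRNAs higher and 39.1% lower, and the median was 3.09 against 0.05. Between lung and testicle the list was mixed, with 6 higher in the lung, 9 lower and 4 not called, and a median of -0.23. Of all tested miRNAs 27.4% were higher there and 49.1% lower. In the 12 lung and testicle libraries alone, 7 of the 17 that passed were higher and 8 lower, against 198 and 256 of all 552 tested. The 4 most abundant of the list in the eye were miR-124-3p (41210 ± 12500 CPM), miR-135a-5p (12320 ± 1450 CPM), miR-9-5p (8233 ± 1010 CPM) and miR-9-3p (4331 ± 680 CPM), and miR-384-5p, at 4398 ± 936 CPM, lay within 1 SD of miR-9-3p.

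The exceptions among the tested miRNAs of the list were 6. MiR-218-5p, a miRNA of motor neurons, had 4206 ± 635 CPM in eye and 4230 ± 863 CPM in lung (edgeR adjusted p 1). MiR-139-5p, miR-326-3p and miR-330-3p did not pass against the lung either (edgeR adjusted p 0.647, 0.118 and 0.0518). MiR-128-3p, at 583 ± 51.8 CPM in eye and 843 ± 64.4 CPM in testicle, and miR-138-5p, at 893 ± 134 CPM in eye and 1548 ± 192 CPM in testicle, were the members of the list called lower in the eye (log2 fold changes -0.53 and -0.79; edgeR adjusted p 0.0097 and 0.0204). Neither of these 2 was called lower with library sizes alone or with left lung 1 as the TMM reference. MiR-448-3p, which did not pass the filter, had 5 counts over the eyes, 32 over the lungs and 1 over the testicles.

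By Pearson correlation of log2(CPM + 1) over all 18 libraries, which mostly follows the step between eye and the other organs, miRNAs outside the 7 came close to each of them. MiR-384-5p was most like miR-487b-3p (r = 0.988), miR-206-3p (0.986) and miR-3099-3p (0.983), and miR-384-3p most like miR-206-3p (0.995), miR-3099-3p (0.989) and miR-211-5p (0.988). For miR-346-5p they were miR-1224-5p (0.986), miR-487b-3p (0.985) and miR-3099-3p (0.984). MiR-592-5p was most like miR-3078-5p (0.990), miR-9768-5p (0.989) and miR-216b-5p (0.987), and miR-592-3p most like miR-135a-2-3p (0.969), miR-758-3p (0.968) and miR-488-3p (0.963). MiR-383-5p was most like miR-96-5p (0.974), miR-344d-3p (0.969) and miR-344-3p (0.968), and miR-149-5p most like miR-344d-3p (0.982), miR-182-3p (0.978) and miR-770-5p (0.977). These coefficients come from 3 organs and libraries that may share animals.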

How the data were processed

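The authors deposited 1 table of raw counts per mature miRNA for each of the 18 libraries, not normalized, per the file headers and the values. Total RNA was extracted by spin column and libraries followed the BGI-500 procedure, per the labels' protocols. The build GRCm38.p6 comes from the submitters' processing notes; the sources used here do not give the aligner, the counting program or the treatment of reads that match several miRNAs. The 7 miRNAs and all lists were chosen with earlier results of these data known. Counts were fitted in edgeR 4.0.16 (R 4.3.3) with TMM scaling after filterByExpr on the groups. Quasi-likelihood p-values were adjusted by the Benjamini-Hochberg method and called at 0.05. Organs were compared in 1 fit of 6 groups over 18 libraries, as means of both sides, which kept 642 of 1431 miRNAs and left out 789. Sides were compared within each organ on 6 libraries. Alternatives were other scalings, no filter, DESeq2 1.42.0, a replicate block and leaving out libraries. Procedures were tested on simulated counts. Named were the 7, their other arms, the 3 most alike miRNAs by correlation, the 4 most abundant of the neuronal list and those not higher in the eye. Sequences came from RefSeq for 6 of the 7.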

Additional observations from a re-analysis of the deposited data

Results flagged for a closer look

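Over 25 sets of 6 libraries, the gap of the extreme library to its neighbour, relative to the range, passed Dixon's 95% value of 0.625 for 2, where chance flags about 1 in 20. Both rest on 1 or 2 counts: miR-592-5p in testicle, with 0.62 CPM in left testicle 2 and 0 in the other 5 (ratio 1), and miR-592-3p in lung, with 0.61 CPM in left lung 2 and 0 in the other 5 (ratio 1).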

How the results depend on the processing

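Of the lung against testicle calls, miR-384-5p (-2.62 to -1.51; adjusted p up to 0.00269) and miR-383-5p (1.70 to 2.88; adjusted p up to 0.00265) passed in all 28 alternatives run for each, which were scalings, no filter, DESeq2, a replicate block, the 12 lung and testicle libraries alone, and libraries left out. MiR-384-3p lost its call in 7 of 28 (-1.79 to -0.62; adjusted p 0.00103 to 0.29), among them without right testicle 2 (-0.62; adjusted p 0.29) and without left lung 1 and right lung 3 (-0.65; adjusted p 0.223). MiR-149-5p was called in 9 of 28 (0.10 to 1.01; adjusted p 0.00211 to 0.684). Without right eye 2, miR-384-3p was not called (-0.72; adjusted p 0.159) and miR-149-5p was (1.01; adjusted p 0.00288). The median of all tested miRNAs was then -0.29, near the -0.31 with left lung 1 as the TMM reference, against -0.90 with all 18 libraries. The cause was not tested. Of all miRNAs 454 to 604 were called, against 491. Of the neuronal list, 15 to 17 were higher against the lung and 16 to 18 against the testicle. The 0 lower against the lung did not hold in all alternatives. It became 1 in several, among them relative log expression scaling, DESeq2 and left lung 1 as the TMM reference. It became 2 with left testicle 1 as the TMM reference, with no filter and without right eye 2.

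Between sides, 0 of the 7 were called under any alternative in eye, lung or testicle. Of all miRNAs, no filter called 6 in the eye and 1 in the lung, and DESeq2 called 1 in the eye and 1 in the testicle; leaving out 1 library gave 0 to 1 for eyes and testicles and 0 for lungs. Signs turned, with no call, for miR-346-5p in the eye (-0.20 to 0.22), miR-592-3p in the eye (-0.70 to 0.037, above 0 without right eye 3), and miR-149-5p in the lung (-0.64 to 0.40, above 0 without right lung 1) and in the testicle (-0.23 to 0.10, above 0 without left testicle 1, at 0.084, and right testicle 3); for miR-346-5p these were without left eye 3 (-0.20) and right eye 1 (-0.05). Whether the replicate numbers pair the sides cannot be settled from 3 libraries per side. Deviations of same-numbered libraries correlated at -0.57 to -0.14 for eyes, -0.13 to 0.55 for lungs and -0.01 to 0.24 for testicles. Those of differently numbered libraries correlated at -0.259 to 0.462, -0.364 to 0.204 and -0.205 to 0.0852. With the replicate number as a block, miR-384-5p, miR-384-3p and miR-383-5p were again called between lung and testicle (490 of all miRNAs), 16 and 17 of the neuronal list were higher in the eye than in lung and testicle, and 0 miRNAs were called between sides. The mean share of miR-384-5p beside the 3 printed miR-30 sequences was 44.1% to 49.6% leaving out 1 eye, and 19.8% with miR-30b-5p and miR-30d-5p added, because more names are then counted. Depth limits miR-592 everywhere, and miR-384 and miR-346 outside the eye.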

Other observations

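The nearest other miRNA gene to Mir384 in the RefSeq table is Mir325, 34713 bases away on chromosome X (105379082 to 105379179, GRCm38.p6). This neighbour was looked up after the values were seen. Both of its arms were counted at a low level in every eye and almost nowhere else. MiR-325-3p had 2 to 7 counts per eye library (27 in all) and 0 over the 6 lungs and the 6 testicles. MiR-325-5p had 2 to 6 counts per eye library (24 in all), 0 over the lungs and 1 over the testicles. The nearest miRNA genes to the other mapped hairpins were much farther off, from 385836 bases for Mir149 to 4322401 bases for Mir346.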
